A study of Monodelphis domestica with 2 samples.

Results

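The genes described here are those of the classical cytoplasmic calcium-binding proteins of cortical neurons, calbindin (CALB1), calretinin (CALB2) and parvalbumin (PVALB), in nuclei of opossum primary visual cortex (V1). A gene was taken where the deposited gene table paired an identifier with its symbol, which held for 2 of the 3 genes: CALB1 (ENSMODG00000007628) and CALB2 (ENSMODG00000014262), out of 30800 genes in all. PVALB is not analysed here. Single-nucleus RNA sequencing (snRNA-seq) was performed on V1 of 2 adult male gray short-tailed opossums (Monodelphis domestica), a marsupial, aged 1.5 years (animal 1) and 2 years (animal 2), for which the labels name no treatment or engineered allele, and which formed 1 group. Tissue of both hemispheres was pooled by animal, nuclei were sorted for a DNA stain, and each suspension gave 2 libraries (1A and 1B, 2A and 2B), which counted as 1 replicate. The library numbers in the titles differ from those in the descriptions and metadata, and libraries were assigned to animals, and so to ages, by the sample record that each file was deposited under. The animals were handled by different experimenters, so animal, age and handling cannot be told apart, and no comparison between groups was possible.

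All of these proteins bind calcium through EF-hand motifs, helix-loop-helix folds that hold the ion, and act mainly as buffers that shape how far and how long calcium spreads after a neuron fires. In the cortex they are known as markers of largely separate sets of GABAergic interneurons. Parvalbumin marks fast-spiking cells derived from the medial ganglionic eminence (MGE), calretinin marks many VIP-expressing cells derived from the caudal ganglionic eminence (CGE), and calbindin is found in many SST-expressing cells and also in upper-layer pyramidal neurons.

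The deposited annotation placed 32764 nuclei in a subclass, of which 4347 were GABAergic, 20150 glutamatergic and 8267 non-neuronal. The libraries held between 55625042 and 69706055 UMIs (unique molecular identifiers, tags by which copies of an RNA molecule are counted once), and 13 to 26 cell barcodes were shared between any pair of libraries. Of 45 marker genes fixed for the cell types, 41 had a symbol in the files. The namesake genes SST, VIP and LAMP5 were each highest in their own subclass, but FREM1 reached 68.0 CPM (UMIs of a gene per 1000000 UMIs) in Lamp5 against 60.8 in Frem1, and the near-projecting markers TSHZ2 and HTR2C and the L6b markers CCN2 and CPLX3 were highest outside L5NP and L6b, as were the L5PT markers FEZF2 and BCL11B and the L6CT marker TLE4 outside theirs, these 3 in L5NP. The label Pvalb was not checked against PVALB itself, and LHX6 was lower there (182.7 CPM) than in Sst (320.9 CPM). SOX6, listed for Pvalb and Sst, was highest in oligodendrocyte precursor cells (1722 CPM, against 875.7 in Pvalb and 952.0 in Sst). ADARB2, listed for Vip, Lamp5 and Frem1, was highest in Frem1 (2059 CPM, against 1860 in Vip and 1089 in Lamp5). Subclasses are therefore called by their deposited labels. The labels were drawn by the authors from clusters of these same counts, so a test between subclasses measures how a gene differs between clusters that may have been formed with it.

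CALB1 was highest in Sst, Pvalb and IT_A, subclasses of both neuronal classes, with the Pvalb level carried largely by 1 type, while CALB2 was concentrated in Vip. In labelled neurons, 6839 UMIs of CALB1 were counted in 4074 nuclei, and 759 UMIs of CALB2 in 501 nuclei. IT_A, a subclass of intratelencephalic neurons that project within the cortex, held 68.7% of the neuronal CALB1 UMIs with 40.3% of the neurons. Pvalb interneurons held a further 13.2%, IT_B 5.92% and Sst interneurons 5.57%. For CALB2, Vip interneurons held 69.2% of the UMIs with 2.07% of the neurons. The level of CALB1 over all labelled nuclei of a library ranged only from 29.99 to 30.8 CPM, and that of CALB2 from 2.81 to 4.10 CPM.

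**Figure D1:**
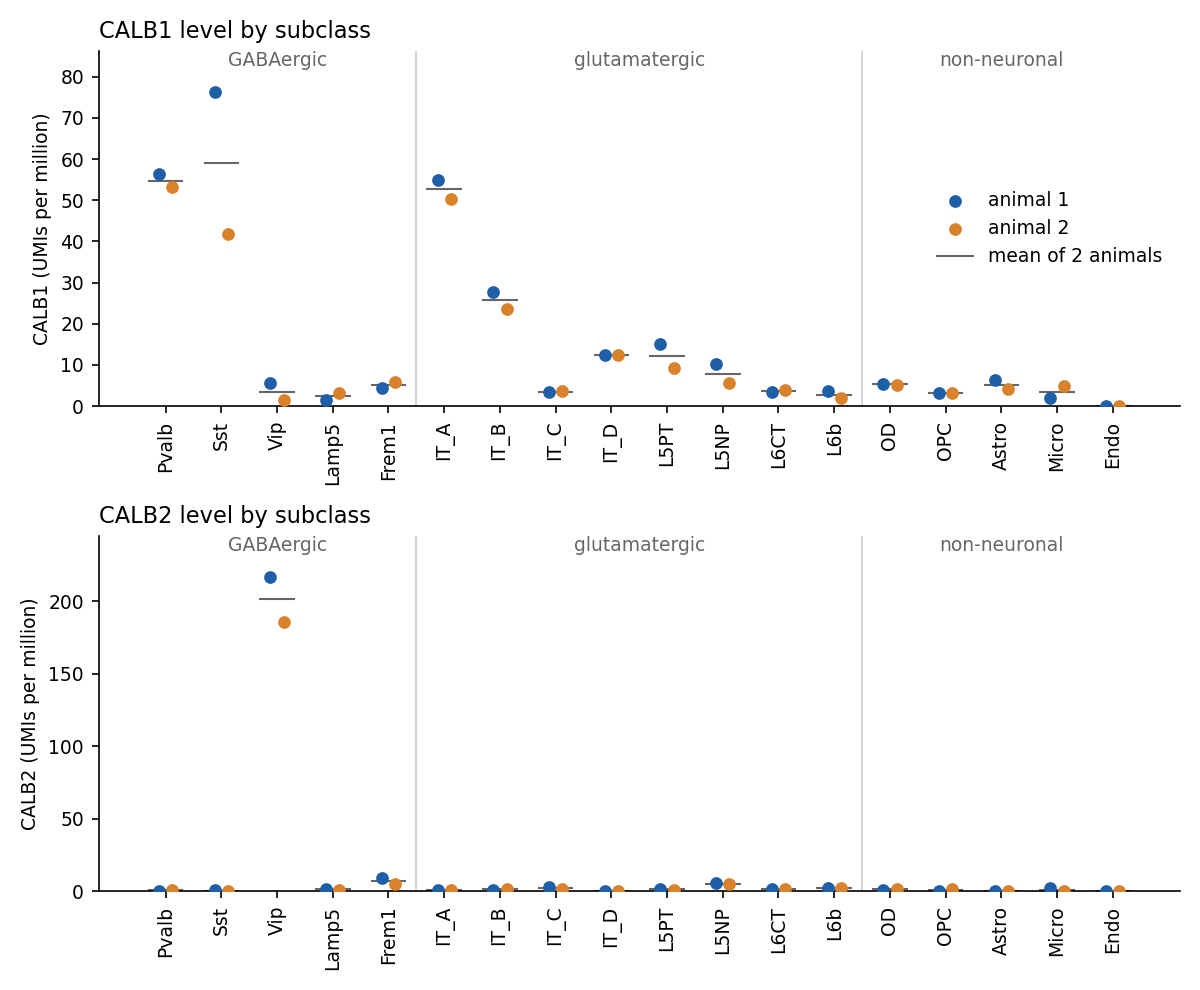
Levels of CALB1 (top) and CALB2 (bottom) in CPM for each subclass, with 1 point per animal and a line at the mean of the 2 animals. CALB1 is at least 41.9 in both animals in Sst, Pvalb and IT_A and at most 27.7 elsewhere, while CALB2 is at least 185.7 in Vip and at most 8.92 elsewhere.

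Across the classes, CALB1 stood at 49.0 CPM in the GABAergic nuclei of animal 1 and 38.3 in those of animal 2, at 30.8 and 31.3 CPM in glutamatergic nuclei, and at 5.05 and 4.43 CPM in non-neuronal nuclei. Counts were then summed per animal and subclass and fitted across all genes with edgeR's quasi-likelihood test and Benjamini-Hochberg adjustment. The mean of the 5 GABAergic subclasses exceeded that of the 8 glutamatergic subclasses by 0.07 ± 0.24 (SE) on the log2 scale for CALB1, which did not pass the test (adjusted p = 0.885). For CALB2 the difference was 1.69 ± 0.46 (SE, adjusted p = 0.00558), in a contrast where 20.8% of all 16156 genes tested were called higher in GABAergic subclasses. That call was lost without IT_D, where both animals had 0 UMIs of CALB2 (0.86, adjusted p = 0.0584), and with 53 nuclei per subclass and animal (0.77, adjusted p = 1.00). Of the 552 CALB2 UMIs in GABAergic nuclei, 525 lay in Vip.

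Within GABAergic neurons, CALB1 divided the subclasses into a high set, Sst and Pvalb, which are MGE-derived in other mammals, and a low set, Vip, Lamp5 and Frem1, in which the CGE marker ADARB2 was high (1089 to 2059 CPM). In Sst interneurons, named for the peptide somatostatin, CALB1 was 76.4 CPM in animal 1 and 41.9 in animal 2. In Pvalb interneurons it was 56.5 and 53.1 CPM. The low set had 4.46 and 5.76 CPM in Frem1, 5.53 and 1.49 in Vip and 1.62 and 3.10 in Lamp5. The high set did not overlap with the low one, whereas Sst and Pvalb overlapped with each other and their order changed between the animals. The difference among the 5 subclasses passed edgeR's F test (adjusted p = 7.41e-10), as 34.6% of all genes did. Against the mean of the other 4, CALB1 was 3.13 ± 0.24 (SE) higher on the log2 scale in Sst (adjusted p = 2.56e-09) and 3.00 ± 0.23 higher in Pvalb (adjusted p = 2.74e-09), where 11% and 14.7% of genes were called higher. It was 2.68 ± 0.52 lower in Lamp5 (log2, adjusted p = 0.000843) and 2.07 ± 0.49 lower in Vip (adjusted p = 0.00546), against 5.78% and 5.95% of genes called lower there. With 53 nuclei per subclass and animal, the calls in Lamp5 (-3.21, adjusted p = 0.0564) and Vip (-0.98, adjusted p = 0.704) were lost. In Frem1 the difference of -1.38 ± 0.49 missed the threshold (adjusted p = 0.0808), and passed it without called doublets (adjusted p = 0.0248) and with no low-count filter (adjusted p = 0.0267).

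The level in Sst was the least even between the animals among the subclasses rich in CALB1. The Sst nuclei of libraries 1A and 1B gave 68.9 and 84.2 CPM, and those of libraries 2A and 2B gave 30.8 and 50.7 CPM. Both libraries of animal 1 were above both libraries of animal 2, although the libraries of an animal also differed from each other. Each of the 4 Sst types was higher in animal 1, by 1.52 times in Sst_4 to 1.99 times in Sst_1. Median depth in Sst was 6269 UMIs per nucleus in animal 1 and 4713 in animal 2, and the part of depth in this difference was not tested. In Pvalb and IT_A the animals differed by 1.06 and 1.09 times. The difference among the Sst types did not pass the F test (adjusted p = 0.817, with 14.1% of genes called).

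**Figure D2:**
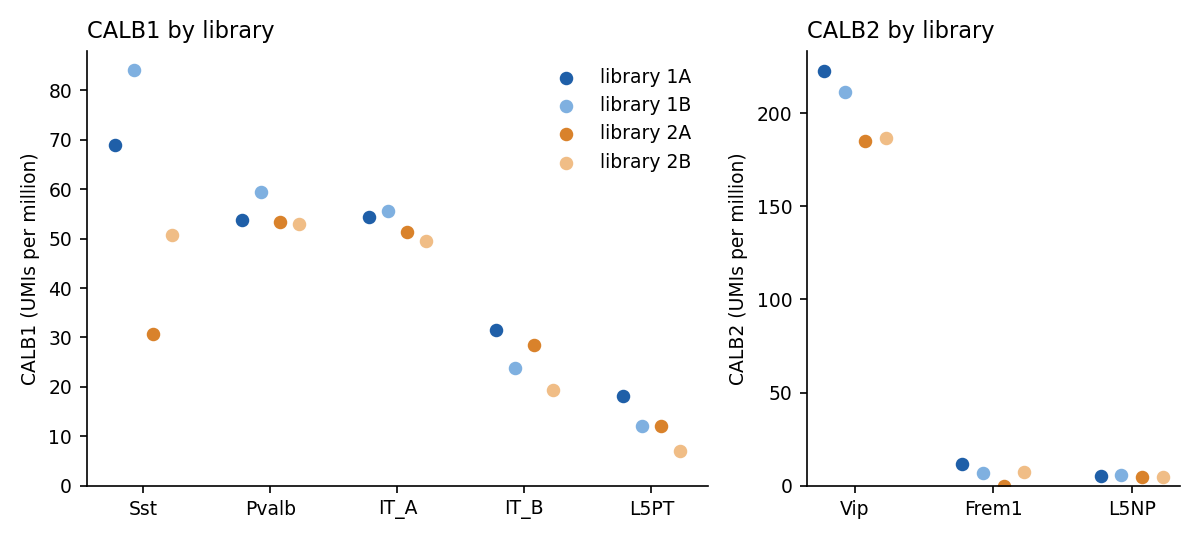
CALB1 (left) and CALB2 (right) in CPM for each library in selected subclasses. Each point is 1 library, and the 2 libraries of an animal share a hue. In Sst the libraries of animal 1 (68.9 and 84.2) lie above those of animal 2 (30.8 and 50.7), while in Pvalb and IT_A all 4 libraries lie between 49.5 and 59.4.

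Within the Pvalb subclass, most CALB1 UMIs lay in 1 of 6 types, with 632 of 905. Pvalb_4 held 357 of the 2146 Pvalb nuclei and had 273.9 CPM of CALB1 in animal 1 and 219.9 in animal 2, the highest level of any type in the data set. The other 5 Pvalb types ranged from 6.57 to 31.3 CPM, and the mean of their 5 levels was 17.3 and 21.6 CPM, under the level of IT_B. A CALB1 UMI was found in 61.9% of Pvalb_4 nuclei of animal 1 (exact 95% interval 54.6 to 68.7%) and 63.8% of animal 2 (55.9 to 71.2%), and in 4.55 to 14.9% of the nuclei of the other types. Positive Pvalb_4 nuclei carried a mean of 3.02 and 2.60 UMIs and at most 9, whereas in the other Pvalb types the mean ran from 1.00 to 2.20. In a fit of 64 sums over 32 types, the difference among Pvalb types passed the F test (adjusted p = 5.52e-18, with 26.1% of genes called). Pvalb_4 stood 3.69 ± 0.19 (SE) above the mean of the other types on the log2 scale (edgeR, adjusted p = 2.98e-19), where 6.19% of genes were called higher. Pvalb_5, with 6.57 and 16.5 CPM, was below the mean of the other types, Pvalb_4 included, by 1.59 ± 0.40 (log2, adjusted p = 0.00367, with 6.50% of genes called lower). That contrast rested on 5 and 11 UMIs in Pvalb_5, which in animal 2 was above Pvalb_3 (15.3 CPM).

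Pvalb_4 also carried more somatostatin RNA than the other Pvalb types, with 94.6 and 73.3 CPM of SST against 2.37 to 36.2 CPM. This was well under the level in 3 of the 4 Sst types, which ranged from 197.8 to 499.8 CPM, and near that of Sst_2 (113.8 and 86.7 CPM). LHX6, a transcription factor of MGE-derived interneurons, was 180.8 CPM in Pvalb_4 in both animals, within the range of 126.2 to 270.4 CPM of the other Pvalb types. RELN, a secreted glycoprotein abundant in all 4 Sst types (306.6 to 2118 CPM), reached 9.08 and 14.7 CPM in Pvalb_4.

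**Figure D3:**
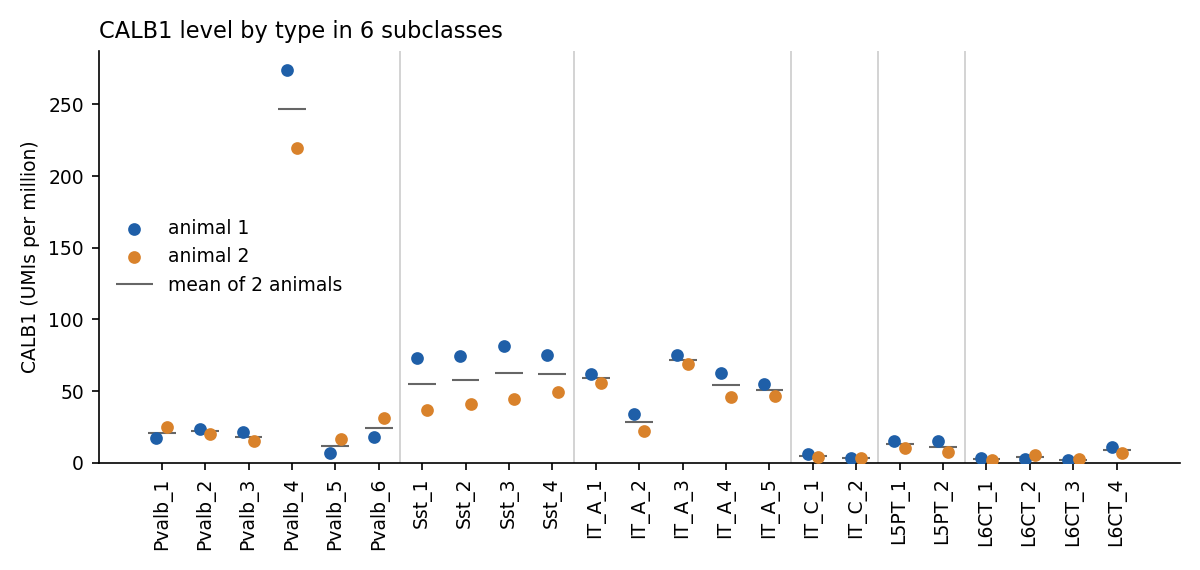
CALB1 in CPM by type in the subclasses Pvalb, Sst, IT_A, IT_C, L5PT and L6CT, with 1 point per animal and a line at the mean. Pvalb_4, at 273.9 and 219.9, stands apart from every other type, and each Sst type is higher in animal 1 than in animal 2.

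Among glutamatergic neurons, CALB1 was highest in IT_A and next in IT_B. IT_A reached 55.0 and 50.3 CPM and IT_B 27.7 and 23.6 CPM, and the animals' ranges of these 2 subclasses overlapped neither with each other nor with any other glutamatergic subclass. IT_D (12.3 and 12.5 CPM), pyramidal tract neurons of layer 5 (L5PT, 15.2 and 9.29 CPM) and near-projecting neurons of layer 5 (L5NP, 10.2 and 5.66 CPM) formed a middle set whose ranges overlapped in part. The higher value of L5NP came from library 1A, with 14.4 CPM against 5.59 in 1B, 6.49 in 2A and 4.81 in 2B. Corticothalamic neurons of layer 6 (L6CT, 3.55 and 3.84 CPM), IT_C (3.44 and 3.65 CPM) and L6b (3.63 and 1.98 CPM) had the lowest levels, within the 0 to 6.27 CPM seen in non-neuronal subclasses, as did the lower value of L5NP. Neighbours in that lowest set did not differ beyond the spread of the animals. The difference among the 8 subclasses passed the F test (adjusted p = 7.28e-11), as 40.0% of genes did. Against the mean of the other glutamatergic subclasses, CALB1 was 2.87 ± 0.16 (SE) higher on the log2 scale in IT_A (edgeR, adjusted p = 5.94e-11) and 1.76 ± 0.19 higher in IT_B (adjusted p = 5.0e-07), where 12.0% and 12.1% of genes were called higher. It was 1.61 ± 0.30 lower in IT_C (log2, adjusted p = 0.000693) and 1.56 ± 0.29 lower in L6CT (adjusted p = 0.000478), against 4.16% and 5.58% of genes called lower. With 53 nuclei per subclass and animal both calls were lost (-1.66, adjusted p = 0.294, and -1.19, adjusted p = 0.452). In L6b the estimate of -2.11 ± 0.68 (adjusted p = 0.0466, with 6.12% of genes called lower) rested on 3 UMIs and lost its call in 7 of 8 alternatives, among them the animal as a block (adjusted p = 0.0618). IT_D, L5PT and L5NP did not pass the test (adjusted p = 0.297, 0.191 and 0.478).

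The types of IT_A also differed in CALB1. IT_A_3 was highest, at 75.0 and 68.9 CPM. IT_A_1 followed with 62.1 and 56.0 CPM, IT_A_4 with 62.8 and 45.7 CPM and IT_A_5 with 55.3 and 46.7 CPM. The range of IT_A_4 overlapped with those of IT_A_1 and IT_A_5. IT_A_2 was lowest at 34.3 and 22.4 CPM and overlapped with no other IT_A type. The difference among the 5 types passed the F test (adjusted p = 9.90e-05, with 36.8% of genes called). IT_A_3 lay 0.64 ± 0.17 (SE) above the mean of the other types on the log2 scale (adjusted p = 0.00973, with 5.69% of genes called higher), a call that DESeq2 did not make (adjusted p = 0.0717). IT_A_2 lay 1.06 ± 0.19 lower (log2, adjusted p = 6.75e-05, with 3.48% of genes called lower). In IT_A_1 the difference of 0.33 ± 0.17 missed the threshold (adjusted p = 0.167) and passed it with the animal as a block (adjusted p = 0.00610). L6CT types also differed by the F test (adjusted p = 0.0199, with 19.5% of genes called). L6CT_4 was highest there with 10.8 and 6.98 CPM, against 1.95 to 5.16 CPM in the other L6CT types (adjusted p = 0.0218, with 6.83% of genes called higher), and without called doublets the call of the F test was lost (adjusted p = 0.912) and the difference of L6CT_4 went from 1.36 to -0.038 (log2). Types of IT_C, L5PT, Lamp5 and Vip did not pass the test for CALB1 (adjusted p between 0.434 and 1.00), where 14.4, 12.4, 0.675 and 1.36% of genes were called.

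CALB2 was the more restricted gene. Vip interneurons had 217.2 CPM in animal 1 and 185.7 in animal 2, with 222.4, 211.5, 184.9 and 186.6 CPM in libraries 1A, 1B, 2A and 2B. No other subclass came near this level. The Frem1 subclass was next on average with 8.92 and 4.61 CPM, a range that overlapped with that of L5NP, and Lamp5 had 1.62 and 0.775 CPM. In Pvalb and Sst CALB2 was sparse, with 3 and 5 UMIs among the Pvalb nuclei of the animals (0.341 and 0.651 CPM), and with 2 UMIs in 1 Sst nucleus of animal 1 and 0 among the 481 Sst nuclei of animal 2, which allows a share of nuclei with a UMI of up to 0.624%. The difference among GABAergic subclasses passed the F test (adjusted p = 1.18e-13, with 34.6% of genes called). Vip stood 7.48 ± 0.25 (SE) above the mean of the other GABAergic subclasses on the log2 scale (edgeR, adjusted p = 2.81e-14), where 7.11% of genes were called higher. That mean includes Sst, with 0 UMIs in animal 2, so the size of the fitted difference depends on the prior count. CALB2 was also called lower in Pvalb (adjusted p = 0.000337) and Sst (adjusted p = 0.000195) than in the other subclasses, where 9.77% and 6.80% of genes were called lower, from sums that held few or no UMIs, and both calls were lost with 53 nuclei per subclass and animal (adjusted p = 1.00). Frem1 did not pass (1.42 ± 0.49, adjusted p = 0.0746), and passed without called doublets (adjusted p = 0.0493).

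Both Vip types expressed CALB2, with 197.5 and 173.7 CPM in Vip_1 and 262.9 and 205.6 CPM in Vip_2. Vip_2 was the higher in each animal, by 0.31 ± 0.33 (SE) on the log2 scale, which did not pass the test (adjusted p = 0.779, with 1.36% of genes called). A CALB2 UMI was present in 59.5% of the Vip nuclei of animal 1 (exact 95% interval 53.0 to 65.7%) and 53.4% of those of animal 2 (47.2 to 59.5%), with a mean of 1.91 and 1.77 UMIs in positive nuclei and at most 8.

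In glutamatergic neurons CALB2 was sparse, with 207 UMIs over 20150 nuclei. L5NP was highest, at 5.38 and 4.72 CPM from 18 and 10 UMIs. IT_C had 2.58 and 1.58 CPM, L6CT 1.61 and 1.22 CPM, L5PT 1.58 and 0.860 CPM, IT_B 0.752 and 1.41 CPM and IT_A 0.580 and 0.762 CPM. In IT_D no UMI was found in 58 and 315 nuclei, which allows shares of nuclei with a UMI of up to 5.17% and 0.952%. Non-neuronal subclasses ranged from 0 to 1.89 CPM, and only L5NP, IT_C and, from 1 UMI, L6b had an animal above that range. Its upper end of 1.89 CPM also came from 1 UMI, in the microglia of animal 1. Over all non-neuronal nuclei the level was 0.541 CPM in animal 1 and 0.932 in animal 2. L5NP, IT_C, L6CT, IT_B and, from 1 UMI per animal, L6b were above that level in each animal. L5PT and IT_A were above it in animal 1 only, and IT_D in neither. The difference among glutamatergic subclasses passed the F test (adjusted p = 0.000295, with 40.0% of genes called), and without IT_D it remained past the threshold (adjusted p = 0.000642), but not with 53 nuclei per subclass and animal (adjusted p = 0.0939). Since a fitted fold against a subclass at 0 has no firm size, the contrasts are given without IT_D. L5NP was then 1.80 ± 0.36 (SE) above the mean of the other 6 subclasses on the log2 scale (edgeR, adjusted p = 0.00111), in a contrast where 9.90% of genes were called higher with IT_D kept. IT_A was 1.33 ± 0.33 below the mean of the others (log2, adjusted p = 0.00576), where 7.1% of genes were called lower with IT_D kept. The other 5 subclasses did not pass (adjusted p between 0.462 and 0.973). With IT_D kept, IT_D itself was called lower (adjusted p = 0.0191, with 6.65% of genes called lower), and IT_A did not pass (adjusted p = 0.968). IT_C then had a difference of 1.39 ± 0.46 (log2, adjusted p = 0.0603), which passed with the animal as a block (adjusted p = 0.0499). Among types, CALB2 was called within IT_A (F test, adjusted p = 0.0162, with 36.8% of genes called), where IT_A_2 had 0.690 and 2.29 CPM. Its lower value lay within the 0.151 to 0.816 CPM of the other IT_A types, which it exceeded by 1.77 ± 0.46 in the fit (log2, adjusted p = 0.00747, with 6.56% of genes called higher). The sums of IT_A types held only 1 to 20 UMIs each. The same fit held the Vip types, at 173.7 to 262.9 CPM, through which a gene can pass the low-count filter. The 2 calls are therefore not read as a difference within IT_A.

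The share of nuclei with at least 1 UMI moved with the depth of the nuclei as well as with the level. In IT_A 28.8 and 28.6% of nuclei were CALB1-positive at a median depth of 7794 and 8753 UMIs. In Pvalb 18.7 and 19.5% were positive at 7195 and 6987 UMIs, and in Sst 27.6 and 16.4% at 6269 and 4713 UMIs. Positive IT_A nuclei had a median of 9026 and 10947 UMIs, against 7340.5 and 8076.5 in the negative ones. In IT_A the share was 7.58 and 5.98% among nuclei under 3000 UMIs and 41.7 and 46.4% among those of at least 12000. The level in these same bins was 33.4 and 52.7 CPM in animal 1, with the highest bin (60.4 CPM) between 6000 and 9000 UMIs, and 24.9 and 59.0 CPM in animal 2. After each nucleus was thinned to 3000 UMIs, the shares of these 3 subclasses lay within each other's spread, at 13.2 ± 1.8% in IT_A, 13.1 ± 0.87% in Pvalb and 14.2 ± 3.7% in Sst (mean ± SD, n = 2 animals), with 514, 265 and 232 shallower nuclei left out. IT_B stood at 5.48 ± 0.93%, L5PT at 3.31 ± 0.38% and IT_D at 3.90 ± 0.18%.

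Free RNA can place a UMI in a nucleus that does not express the gene, and non-neuronal nuclei give a measure of that background. They were CALB1-positive in 1.15 and 1.01% of cases, at a median depth of 2111.5 and 2126 UMIs, and the 1817 of them with at least 3000 UMIs had 1.00 ± 0.14% after thinning. These 1817 are the deeper part of 8267 labelled non-neuronal nuclei, and whether their background holds for the rest was not tested. For CALB2 their thinned share, given below, was above that of all non-neuronal nuclei as counted (0.128 and 0.196%). In Vip (1.01 ± 1.4%), IT_C (0.991 ± 0.22%), Lamp5 (0.915 ± 0.40%) and L6CT (0.637 ± 0.089%) the thinned CALB1 share was below that background or within its spread. Frem1 had no positive nucleus among the 262 kept, which allows a share of up to 1.15%. L5NP (1.79 ± 0.93%) also reached the background within its spread, and L6b (1.85 ± 0.049%) rested on 2 positive nuclei. For CALB2 the thinned share was 43.1 ± 1.9% in Vip, 3.34 ± 0.79% in Frem1 and 1.80 ± 0.12% in L5NP, against 0.405 ± 0.29% in non-neuronal nuclei. All other neuronal subclasses lay at or below 0.621%. The thinned values of Frem1 and L5NP rested on 9 and 12 positive nuclei.

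**Figure D4:**
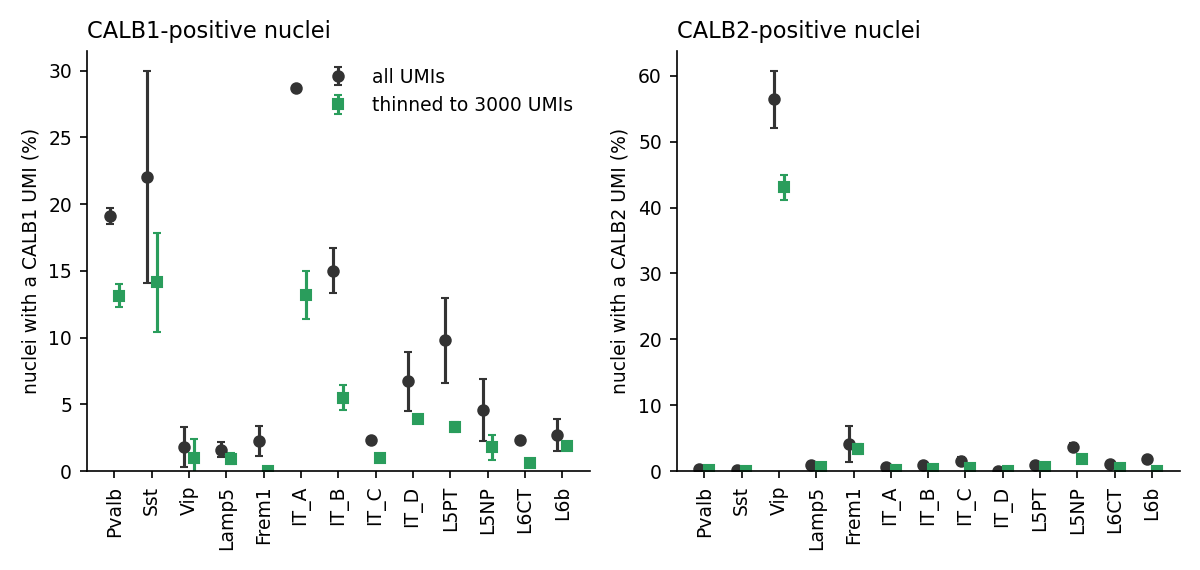
Percentage of nuclei with at least 1 UMI of CALB1 (left) and CALB2 (right) by neuronal subclass, as counted (circles) and after thinning each nucleus to 3000 UMIs (squares). Points are means of 2 animals with SD bars. Thinning brings IT_A (13.2%) level with Pvalb (13.1%) and Sst (14.2%), and the share of CALB2-positive Vip nuclei goes from 56.5% as counted to 43.1%.

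Fewer nuclei held both CALB1 and CALB2 than the separate shares over all neurons give, and most of that gap was gone when the shares were taken within subclasses. Of 24497 labelled neurons, 25 held UMIs of both genes, where the product of their separate shares within each animal gives 83.4. The ratio of these numbers was 0.371 in animal 1 and 0.223 in animal 2. Within GABAergic neurons 10 nuclei held both against 46.9 from the shares, and within glutamatergic neurons 15 against 32.4. The ratios were below 1 in both animals in each class, at 0.262 and 0.148 in GABAergic and 0.559 and 0.369 in glutamatergic neurons. When the product was formed within 5 bins of depth, the ratio over all neurons was 0.341. When it was formed within each subclass and summed, an alternative chosen after seeing the data, the shares gave 30.3 nuclei over all neurons (ratio 0.824), 7.43 in GABAergic (1.35) and 22.9 in glutamatergic neurons (0.655). By animal these ratios were 1.09 and 0.575, 1.31 and 1.42, and 0.964 and 0.443, so that below 1 in both animals was found in glutamatergic neurons only. Since nuclei are not replicates, no p is given. Inside IT_A 6 nuclei held both against 16.05 from the shares, and in the 8 other neuronal subclasses with such nuclei the 1 to 7 found were above the number from the shares. Those 8 were picked for holding at least 1 such nucleus. Where the shares give under 1, an excess was therefore fixed in advance and nothing is read from it. Frem1, Lamp5, IT_D and L6b held no such nucleus. Inside the Vip subclass 7 of the 9 CALB1-positive Vip nuclei were also CALB2-positive, against 5.23 from the shares. Of all 26 labelled nuclei with both genes, 2 were called doublets, and their median depth was 9153 UMIs against 6169 for all labelled nuclei.

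The genes found beside CALB1 within a nucleus were described for the subclasses where it was highest. In Pvalb, 15.7 and 18.7% of CALB1-positive nuclei also held SST, against 4.99 and 6.66% of CALB1-negative nuclei, and 70 nuclei held both where the shares give 32.5. Within Pvalb_4 alone the numbers were 52 and 47.8, so within that type the excess was small. In Sst, 154 nuclei held both CALB1 and SST against 118 from the shares, a ratio of 1.22 in animal 1 and 1.51 in animal 2, and of 1.15 within depth bins. In IT_A, CUX2, a transcription factor of upper-layer neurons elsewhere, was found in 88.7 and 93.5% of CALB1-positive nuclei and in 75.7 and 82.3% of negative ones (ratio 1.10, and 1.07 within depth bins). In these data the level of CUX2 was highest in IT_D (647.5 CPM). ADARB2, best known from CGE-derived interneurons, was present in 10.0 and 7.67% of CALB1-positive IT_A nuclei and in 4.99 and 4.63% of negative ones (ratio 1.47, and 1.28 within depth bins). RORB, a marker of layer 4 neurons elsewhere, showed no such excess in IT_A, with 895 nuclei against 909 from the shares. Over GABAergic neurons, LHX6 was found in 77.3 and 71.4% of CALB1-positive and in 4.38 and 4.67% of CALB2-positive nuclei, and ADARB2 in 6.33 and 5.0% of CALB1-positive and 98.1 and 96.7% of CALB2-positive nuclei.

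Among GABAergic neurons, most CALB2-positive nuclei were VIP-positive. There 192 nuclei held CALB2 and VIP, the gene of vasoactive intestinal peptide, against 24.4 from the shares, and 60.6 and 63.3% of CALB2-positive nuclei held VIP compared with 3.55 and 3.90% of the rest. Within the Vip subclass the excess was small, with 185 nuclei against 166 (ratio 1.12, and 1.07 within depth bins). In the Frem1 subclass 6 of 13 CALB2-positive nuclei held VIP, where the shares give 1.48. CCK, the gene of the peptide cholecystokinin, was present in 80.6 and 79.4% of CALB2-positive Vip nuclei and in 67.3 and 63.4% of negative ones.

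**Figure D5:**
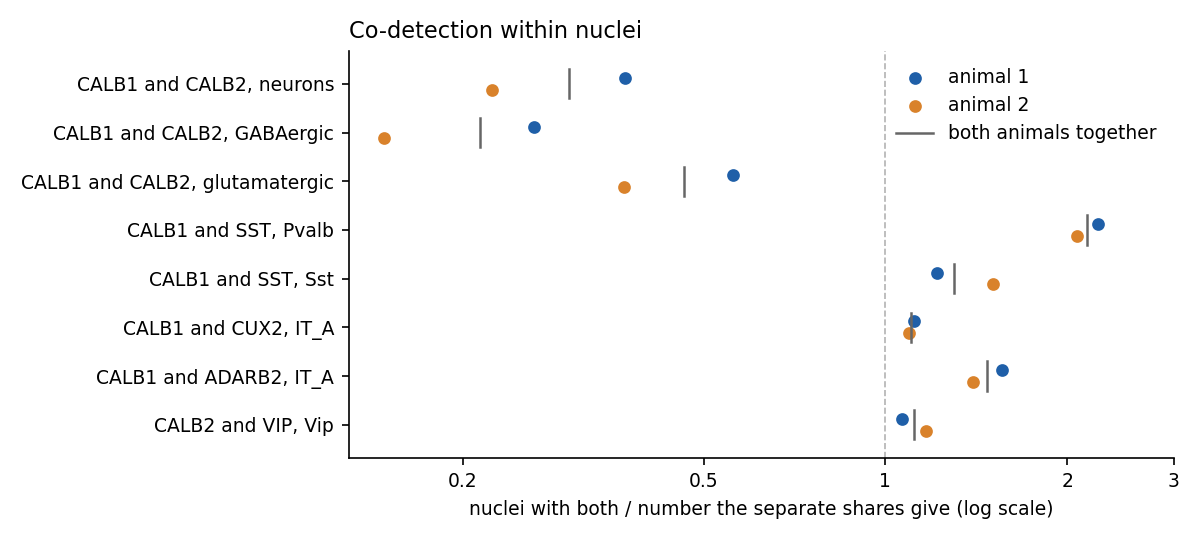
Ratio of the number of nuclei with UMIs of both genes to the number that the separate shares give, on a log axis, for 8 pairs of genes and nuclei. Points are the animals, the bar is both animals together and the dashed line marks a ratio of 1. CALB1 and CALB2, with shares taken over the whole class, lie left of the line in all neurons, GABAergic and glutamatergic neurons, and the pairs with SST, CUX2, ADARB2 and VIP lie right of it.

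The genes whose levels across the 13 neuronal subclasses were most like CALB1 were COL4A1 (mean Pearson r of the animals 0.82), SFSWAP (0.81), COL4A2 (0.81), CDK6 (0.81) and CTNNAL1 (0.80), out of 5936 genes with a symbol and at least 20 CPM in their highest subclass. COL4A1 and COL4A2 encode chains of type IV collagen, SFSWAP a splicing regulator, CDK6 a cyclin-dependent kinase and CTNNAL1 a relative of alpha-catenin. For CALB2 the closest were VIP (0.90), PTPRA (0.88), ADAM12 (0.87), TUSC3 (0.85) and RBM38 (0.83). All 5 were highest in Vip, with VIP itself at 241.6 and 239.2 CPM there. Across the 15 GABAergic types, CALB1 was most like ADGB (0.90), SPON1 (0.89), ST3GAL1 (0.88), HECTD2 (0.88) and STXBP6 (0.87). SPON1, a secreted matrix protein, and HECTD2, a ubiquitin ligase, were highest in Pvalb_4, with 501.6 and 512.3 CPM and 230.0 and 307.1 CPM. These correlations are descriptions over points that share animals, libraries and labels.

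Other EF-hand genes differed between the classes in both directions. Of 64 listed genes 44 had a symbol in the files and 26 passed edgeR's low-count filter. Of these, 7 were called higher and 13 lower in GABAergic subclasses, or 76.9% in all, where 20.8% of all genes were called higher, 22.0% lower and 42.8% in all. Their median log2 difference was -0.11, against 0.01 over all 16156 genes tested. Among GABAergic subclasses 13 of the 26 were called by the F test (50.0%, against 34.6% of all genes), and among glutamatergic subclasses 17 (65.4%, against 40.0%). Among the listed genes called, the largest differences were those of the Kv channel-interacting proteins, calcium sensors that bind voltage-gated potassium channels. KCNIP1 was 650.7 and 663.8 CPM in GABAergic and 81.4 and 68.0 CPM in glutamatergic nuclei, 3.70 ± 0.11 (SE) higher on the log2 scale (edgeR, adjusted p = 5.54e-17). KCNIP3 was 102.7 and 109.97 CPM in GABAergic and 755.6 and 753.6 CPM in glutamatergic nuclei, 2.30 ± 0.07 lower (adjusted p = 1.67e-16), and KCNIP2 was 1.32 ± 0.07 lower (adjusted p = 2.93e-13). CETN3, a centrin, was 0.94 ± 0.11 higher (adjusted p = 5.29e-07), CIB2, a calcium- and integrin-binding protein, 0.86 ± 0.15 higher (adjusted p = 7.30e-05) and CALML4, a calmodulin-like protein, 1.28 ± 0.22 lower (adjusted p = 4.77e-05). KCNIP1 did not pass the F test among GABAergic subclasses (adjusted p = 0.0788).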

How the data were processed

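Nuclei of V1 from 2 animals were profiled with 10x Chromium 3′ v3 chemistry in 4 libraries. Per the labels and the study's methods, the authors counted reads with Cell Ranger (6.1.1 in the processing notes, 7.1.0 in the matrix headers), introns included, against ASM229v1 with Ensembl gene models whose 3′ ends they had extended. The deposited values are UMI counts per gene and nucleus. The deposited metadata hold the cell type labels and the Scrublet doublet score, a fraction from 0 to 1, both made by the authors. Of 36558 barcodes, 32764 carried a subclass label and 2315 lay in clusters that the authors had left out as doublets or ambiguous. Called doublets (798 of the labelled nuclei) were kept and were left out in an alternative.

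Counts were summed per animal and subclass (26 sums) or type (64 sums, at least 20 nuclei in each) and fitted with edgeR 4.0.16 in R 4.3.3, with TMM normalization, filterByExpr and the quasi-likelihood test, and p-values were adjusted by Benjamini-Hochberg over all genes tested (16156 and 14220). With 2 animals, p-values measure the spread between these animals. CPM is UMIs of a gene per 1000000 UMIs of the same nuclei. Intervals of shares are exact binomial at 95%, limits for a count of 0 use 3 counts, and both cover counting error only. The product of shares was formed within each animal and added over the animals. Genes of similar pattern were ranked by Pearson's r of log2(CPM + 1), averaged over the animals.

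The same animals gave every subclass, so sums pair by animal. Over 78 pairs of subclasses, the deviations of an animal correlated by 0.0278 at the lowest, 0.152 at the median and 0.599 at the highest over 16156 genes. Alternatives were RLE size factors, DESeq2 1.42.0, no low-count filter, the replicate block, nuclei with at least 3000 UMIs, no called doublets, 53 nuclei per subclass and animal, each animal left out, thinning to 3000 or 5000 UMIs, 5 depth bins and a threshold of 2 UMIs. Omitting IT_D, thinning to 1000 UMIs, the ranking over GABAergic types, the product of shares within subclasses and the CALB2 partner genes were chosen after the data were seen. The genes described and the lists were chosen with earlier results of these data known. The self-test of the fits used simulated counts with a spread that was set beforehand. There 95% of 2-fold changes were recovered between the classes. Among GABAergic subclasses 19.15% were recovered, among glutamatergic subclasses 41.58% and among Pvalb types 17.53%. A gene that did not pass an F test may therefore still differ by 2-fold in 1 subclass or type. No genome of the authors' build was used, so neither positions nor sequences are given.

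Named genes were the members, the EF-hand genes with the largest called class differences among those listed (3 higher and 3 lower), the 5 genes most alike in pattern, the listed partner genes and the listed cell type markers, of which those highest outside their subclass were named after their values were seen. Python 3.11.15 with pandas 2.3.3, scipy 1.17.1 and matplotlib 3.10.9 was used for all else.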

Additional observations from a re-analysis of the deposited data

Results flagged for a closer look

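Nuclei that the authors had left out of the labelled set also held UMIs of both genes in 3 of 4 groups at a share above the limit that a count of 0 allows. That limit separates a share from 0 only and cannot separate expression from free RNA. Labelled oligodendrocytes of animal 1 also passed it for CALB1, with 1.14% against a limit of 0.132%. In GABAergic nuclei of ambiguous clusters (730 nuclei, median depth 1871 UMIs), 3.29% had a CALB1 UMI, with 1.32% in animal 1 and 4.67% in animal 2, and 6.58% a CALB2 UMI, with 9.27 and 4.67%. In GABAergic nuclei of doublet clusters (604 nuclei, median depth 8039 UMIs) the shares were 17.1% for CALB1 and 6.46% for CALB2. In non-neuronal nuclei of doublet clusters (705 nuclei, median depth 8445 UMIs) they were 16.9% for CALB1 and 1.42% for CALB2. Labelled non-neuronal nuclei, at a median depth of 2111.5 and 2126 UMIs, had CALB1 in 1.15 and 1.01% and CALB2 in 0.128 and 0.196%, and the part of depth in the difference was not tested. In the remaining group, the 276 non-neuronal nuclei of ambiguous clusters, 2 held CALB1 (0.725%), both from animal 2, and 0 held CALB2, which allows a share of nuclei with a UMI of up to 1.09%.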

How the results depend on the processing

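Of 416 refits of the member results, 383 kept their direction and their side of the threshold. With 53 nuclei per subclass and animal, the genes called fell from 6909 to 3353 between classes, from 5584 to 2384 among GABAergic and from 6464 to 2883 among glutamatergic subclasses, and the EF-hand genes from 20 to 10, in sums that hold fewer nuclei. CALB2 between classes was then 0.77 (adjusted p = 1.00), and 0.86 without IT_D (adjusted p = 0.0584). Among glutamatergic subclasses its largest difference was 2.74 with equal nuclei (adjusted p = 0.0939). Signs turned, none of them called, without called doublets for CALB1 among types of L6CT (-0.038) and Lamp5 (0.045), with equal nuclei for CALB1 in IT_D (-0.15) and CALB2 in L5PT (-2.26), with DESeq2 for CALB2 in IT_B (-0.018), and without IT_D for CALB2 in IT_B (-0.51), L5PT (-0.35) and L6CT (-0.19). The cause was not tested. With the animal as replicate block, CALB1 in L6b lost its call (adjusted p = 0.0618) and CALB1 in IT_A_1 (0.00610) and CALB2 in IT_C (0.0499) gained one, and the block changed no other call that the text gives. With 1 animal left out, values without a test changed sign for CALB1 among types of Lamp5 (-0.26 to 0.23) and Vip (-0.12 to 6.65), and for CALB2 among types of IT_C (-0.90 to 0.59), Lamp5 (-5.24 to 6.06) and Pvalb (-1.69 to 3.798) and in IT_B (-0.18 to 0.99). CALB2 among Sst types had no value without animal 1.

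Shares of positive nuclei moved with depth by construction. For CALB1 the GABAergic share was 15.1 ± 2.3% as counted, 9.99% at 3000 UMIs, 13.1% at 5000, 3.71% at 1000 and 6.38% with at least 2 UMIs, and the glutamatergic share 16.9, 7.59, 11.9, 2.73 and 6.13%, and 16.9% without called doublets, so the class with the higher mean was glutamatergic as counted and GABAergic after each thinning and with 2 UMIs. The non-neuronal share was 2.09% at 5000 (0.813 and 3.36% by animal, from 5 positive nuclei of 242), 0.301% at 1000 and 0.0493% with 2 UMIs, and the Sst share 4.76% at 1000 and 7.57% with 2 UMIs. For CALB2, at 3000, 5000, 1000 and with 2 UMIs, the GABAergic share was 5.17, 5.01, 2.70 and 3.15%, the glutamatergic share 0.358, 0.630, 0.0919 and 0.0702%, and the non-neuronal share 0.405, 0.407, 0.0668 and 0.0140%. In Vip it was 43.1% at 3000, 22.7% at 1000 and 26.8% with 2 UMIs. With at least 2 UMIs of each gene, the co-detection ratio of CALB1 and CALB2 was 0.107 in neurons (1 nucleus against 9.36 from the shares), 0.114 in GABAergic (1 against 8.80) and 0 in glutamatergic nuclei (0 against 0.858, too few to read). With at least 1 UMI of each gene and the product formed within subclasses, the ratio was 0.824 in neurons, 1.35 in GABAergic and 0.655 in glutamatergic nuclei.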
